A study of Mus musculus with 16 samples.

Results

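Acyl-CoA thioesterases split an acyl-CoA into a free fatty acid and coenzyme A, the opposite of the reaction by which acyl-CoA synthetases activate fatty acids. The mouse enzymes are named Acot and sit in the mitochondrion, the cytosol and the peroxisome, so that each compartment can release its own acyl groups and recover its coenzyme A. In liver, several of the genes are known targets of the fatty acid receptor PPARα, and *Acot1* is often used as a marker of its activity. The transcripts of 10 of these genes were followed here: *Acot1*, *Acot2*, *Acot3*, *Acot4*, *Acot7*, *Acot8*, *Acot9*, *Acot11*, *Acot12* and *Acot13*. They were chosen by symbol from the 55450 genes quantified, in which 13 numbered Acot genes appear. The remaining 3, *Acot5*, *Acot6* and *Acot10*, are given only for comparison.

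Bulk RNA-seq libraries came from cultured primary hepatocytes, isolated from male C57BL/6J mice of wild-type genotype. The cells were kept overnight in DMEM with serum and insulin-transferrin-selenium, and 4 groups of 4 libraries were made: untreated; lipid, a chemically defined mixture of fatty acids and cholesterol diluted 10-fold; itaconate, 10 mM of its sodium salt; and lipid + itaconate, both agents together. Each replicate letter from A to D holds 1 library of every group, but the labels do not say whether the letters are separate animals or cultures, so p-values measure only the spread between these libraries, which may be technical. The totals of expected counts ran from 22346049 in untreated replicate A to 35512004 in itaconate replicate D (median 27719372).

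The hepatocyte label was compared with marker genes. All 10 hepatocyte markers were well above the low-count filter, and their summed level was 48896 ± 6646 CPM (counts scaled to a common library size; SD, n = 4) in untreated cells, led by *Alb*. It was 43146 ± 4728 CPM with lipid, 50271 ± 6574 CPM with itaconate and 44635 ± 8831 CPM with both. Of 10 macrophage and Kupffer cell markers, 8 passed the filter, and their sum of 233 ± 46.8 CPM in untreated and 289 ± 43.8 CPM in lipid-treated cells was mostly *Cd68*, a lysosomal protein gene (mean 218 CPM over the 16 libraries). The defining Kupffer cell genes *Adgre1* and *Clec4f* were at means of 1.78 and 2.19 CPM. The sum of 6 cholangiocyte markers was 848 ± 246 CPM in untreated and 467 ± 123 CPM in lipid-treated cells, nearly all of it from *Spp1* and *Sox9*, while *Krt19* was at a mean of 0.225 CPM, *Krt7* at 0 in 14 libraries and *Cftr* at 0 in 16. Stellate cell, endothelial, and adipocyte and muscle lists summed to 22.4 ± 1.32, 16.5 ± 4.7 and 0.231 ± 0.132 CPM in untreated cells, with *Reln*, *Cdh5* and *Plin1* their most abundant genes. *Ckm*, *Myh6* and *Actn2* were at 0 in all 16 libraries, and *Acta2* in 15. With lipid, *Alb*, *Ttr*, *Serpina1c*, *Adgre1*, *Cd5l*, *C1qa*, *C1qb*, *Stab2*, *Spp1* and *Sox9* fell and *Cd68* and *Lyve1* rose, and with itaconate alone *Cd68* fell and *Lyz2* rose. The part of these marker levels in the results below was not tested, and in bulk RNA fewer cells of a type and less RNA per cell cannot be told apart.

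The library labelled lipid + itaconate replicate B stood apart from its group. Its chi-square per gene against replicates A, C and D was 128, 147 and 106, where 1 would be counting noise, and the other 21 pairs of libraries within a group lay between 10 and 64.5. Values of the 8 tested members and list counts of the comparisons that include this library are therefore also given without it. For *Acot3* and *Acot11* they are given only with it.

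Levels between genes were compared as RPKM, which is CPM divided by the exon length in units of 1000 bases. In untreated hepatocytes the highest level was that of *Acot13*, a small mitochondria-associated thioesterase of medium- and long-chain acyl-CoAs, at 52.7 ± 3.06 RPKM (SD, n = 4). It was followed by the mitochondrial *Acot9* at 30.5 ± 1.39 RPKM, the mainly cytosolic long-chain enzyme *Acot7* at 22.5 ± 1.21 RPKM and *Acot12*, the cytosolic acetyl-CoA hydrolase of liver, at 8.99 ± 0.903 RPKM. No library of any of these 4 overlapped with a neighbour in the order. Lower levels were found for the peroxisomal *Acot8* (3.64 ± 0.156 RPKM), the mitochondrial long-chain enzyme *Acot2* (2.73 ± 1 RPKM), the peroxisomal *Acot4* (1.17 ± 0.203 RPKM) and the cytosolic long-chain enzyme *Acot1* (1.09 ± 0.255 RPKM). *Acot8* and *Acot2* overlapped in range, and so did *Acot4* and *Acot1*. *Acot11*, best known from brown fat, and the peroxisomal *Acot3* lay at 0.116 ± 0.0638 and 0.0599 ± 0.0527 RPKM and also overlapped. As a share of the summed mean RPKM of the 10 genes over the 16 libraries, *Acot13* made up 46.7%, *Acot9* 22.5% and *Acot7* 16.9%.

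**Figure D1:**
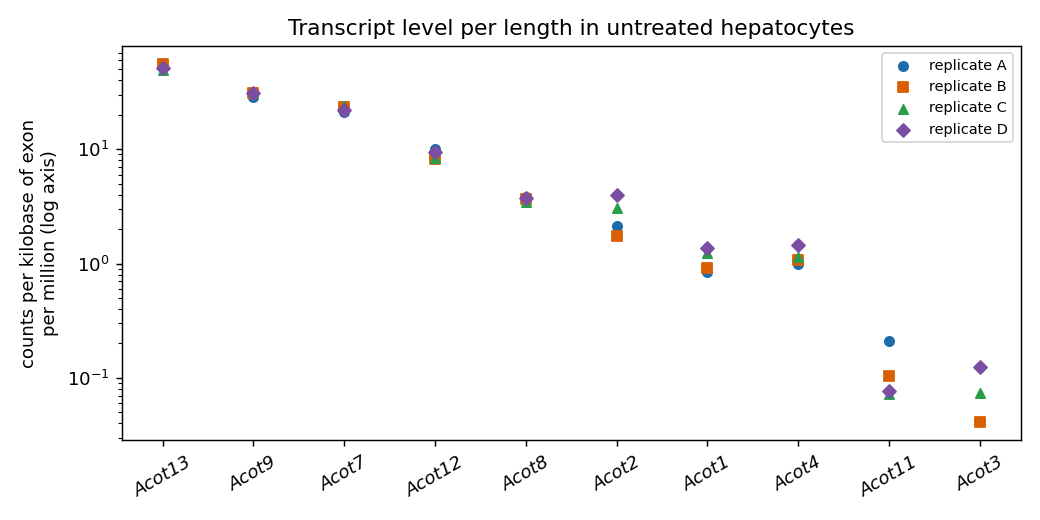
Level of each of the 10 thioesterase transcripts in the 4 untreated libraries, in RPKM on a log axis, with 1 point for each replicate. The levels descend from 52.7 for *Acot13* to 0.0599 for *Acot3*, whose replicate A had no count and is not drawn.

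Of the 10 genes, 8 passed the low-count filter, an average of 1 CPM or more, and were tested. *Acot11*, with 5 to 30 counts per library, and *Acot3*, with 0 to 13.75 expected counts, did not. At these depths a difference of moderate size was not detectable: without the filter the fitted log2 fold change of lipid minus untreated was 0.09 for *Acot11* (95% interval −0.61 to 0.79) and −0.17 for *Acot3* (−1.49 to 1.14). With itaconate in both arms the lipid values were 0.53 for *Acot11* (−0.185 to 1.24; higher in 4 of 4 letters, edgeR adjusted p = 0.399) and 0.06 for *Acot3* (−1.16 to 1.29). Itaconate minus untreated gave −0.52 for *Acot11* (−1.25 to 0.20; lower in 2 of 4 letters, edgeR adjusted p = 0.699) and 0.14 for *Acot3* (−1.15 to 1.42), and lipid + itaconate minus lipid gave −0.09 (−0.775 to 0.60) and 0.37 (−0.93 to 1.68). The interactions were 0.44 (−0.57 to 1.44) and 0.24 (−1.56 to 2.03).

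The first comparison asks what the lipid mixture did to hepatocytes in the absence of itaconate. The mitochondrial *Acot9* and the peroxisomal *Acot4* fell, *Acot7* fell by a small amount and *Acot13* rose. By edgeR's quasi-likelihood test with Benjamini-Hochberg adjustment over 11675 genes, 4 of the 8 tested thioesterases passed an adjusted p of 0.05, 1 higher and 3 lower, while 47.5% of all genes passed it. The members' share is close to that of all genes and is no result about the family. Their median log2 fold change was −0.14, and that of all genes tested was 0.0047.

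Among the mitochondrial enzymes, *Acot9*, which hydrolyses both short- and long-chain acyl-CoAs, was measured at 65, 70.1, 72.6 and 69.9 CPM in untreated replicates A, B, C and D and at 52.8, 53.4, 50.5 and 53.9 CPM in the lipid-treated replicates. Every lipid-treated library was below every untreated one. The log2 fold change was −0.40 ± 0.0522 (SE), a level 24% lower in the fit, lower in 4 of 4 letters (edgeR adjusted p = 2.08e-05). *Acot13* was at 40.8, 41.4, 36.5 and 38.2 CPM in untreated and 46.8, 49.5, 41.4 and 42.7 CPM in lipid-treated replicates A to D. It was higher with lipid within each of the 4 letters, although lipid-treated replicate C and untreated replicate B met at 41.4 CPM. Its log2 fold change was 0.20 ± 0.0612 (edgeR adjusted p = 0.0139), and without lipid replicate A the adjusted p was 0.0502, the highest of 24 alternatives (lowest 0.00172). *Acot2* was at 4.68, 3.82, 6.72 and 8.74 CPM in untreated and 6.99, 4.97, 4.78 and 6.08 CPM in lipid-treated replicates A to D. It was higher with lipid in letters A and B and lower in letters C and D, and the groups overlapped (log2 fold change −0.03 ± 0.187, edgeR adjusted p = 0.898).

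Of the cytosolic enzymes, *Acot7*, a long-chain thioesterase best known from brain, was at 44.8, 49.4, 50.3 and 46.4 CPM in untreated and 38.5, 45.4, 44.1 and 45.7 CPM in lipid-treated replicates A to D. It was lower with lipid in each letter, by least in D, and the groups overlapped. The log2 fold change was −0.14 ± 0.0504 (edgeR adjusted p = 0.0359), but only 13 of 24 alternatives passed the threshold, with adjusted p-values from 0.0244 to 0.161. The call was lost on leaving out replicates A, B or C of the untreated group (0.0703, 0.0964 and 0.0921), replicates A or C of the lipid group (0.155 and 0.0905), or replicates A or B of the itaconate group (0.0509 and 0.0516). It was also lost without the replicate block (0.0876), with other filters (0.0503 with filterByExpr, 0.161 with none) and in a fit of the 8 libraries alone (0.0507). *Acot12* ranged from 26.9 to 33.2 CPM in untreated and from 25.1 to 27.8 CPM in lipid-treated libraries, overlapping groups with a lower value in 4 of 4 letters (log2 fold change −0.15 ± 0.0742, edgeR adjusted p = 0.114). *Acot1* was at 3.33, 3.58, 4.82 and 5.42 CPM in untreated and 2.44, 2.03, 4.22 and 5.1 CPM in lipid-treated replicates A to D. Replicates C and D were higher than A and B in both groups, and the lipid-treated value was the lower in each letter. The difference was within the spread between libraries (log2 fold change −0.33, 95% interval −0.82 to 0.15, edgeR adjusted p = 0.239). Over 24 alternatives the log2 fold change ran from −0.518 to −0.166 and none passed. The highest edgeR adjusted p was 0.585, without lipid replicate B.

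Of the peroxisomal enzymes, *Acot4*, known in the mouse for hydrolysing succinyl-CoA and the CoA esters of dicarboxylic acids, was at 6.61, 7.12, 7.71 and 9.7 CPM in untreated and 5.65, 3.5, 5.84 and 7.29 CPM in lipid-treated replicates A to D. Lipid replicate B was the lowest, and the lipid-treated value was lower in each letter although lipid replicate D lay above untreated replicates A and B. The log2 fold change was −0.50 ± 0.119 (edgeR adjusted p = 0.00271). Without the replicate block the adjusted p was 0.0832, the highest of 24 alternatives (lowest 0.000464). *Acot8*, a thioesterase of broad chain-length range, lay between 6.83 and 7.54 CPM in untreated and between 7.22 and 7.96 CPM in lipid-treated libraries (log2 fold change 0.07, 95% interval −0.18 to 0.32, edgeR adjusted p = 0.649). The summed marker levels differed with lipid too: the hepatocyte sum was lower and the *Cd68*-led sum higher in each letter, and the cholangiocyte sum was lower in each letter. Their part in the differences of *Acot9*, *Acot13* and *Acot4* was not tested.

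**Figure D2:**
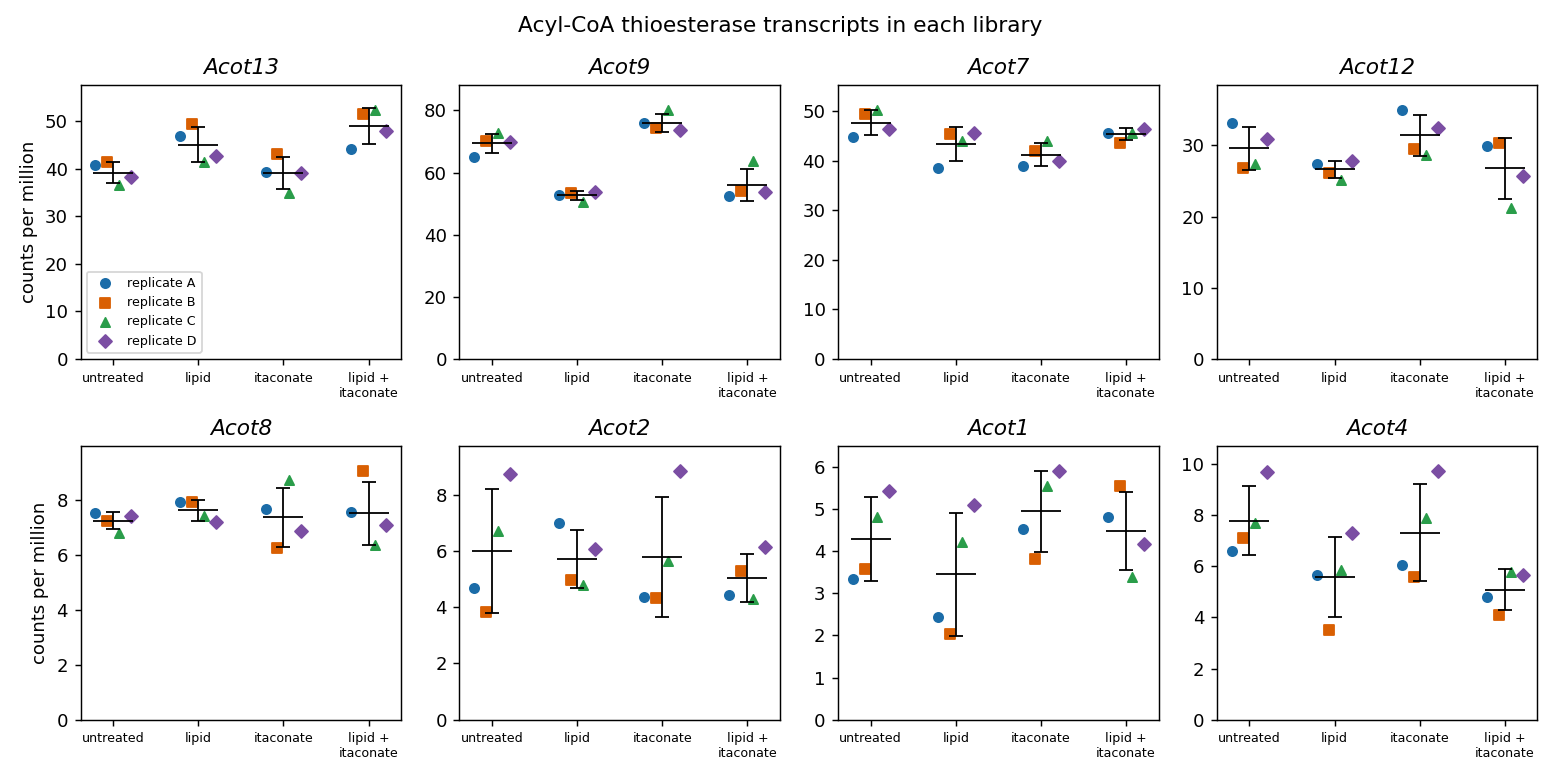
CPM of the 8 tested thioesterases in each of the 16 libraries, with colour and shape for the replicate letter, bars for the mean and whiskers for the SD of 4 libraries. Values of *Acot9* with lipid or lipid + itaconate (50.5 to 63.8) lie below those without lipid (65 to 80.2).

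The same lipid mixture was compared with itaconate present in both arms. *Acot9*, *Acot4* and *Acot12* fell and *Acot13* and *Acot7* rose. By the same edgeR test, 5 of the 8 tested members were called, 2 higher and 3 lower, beside 47% of all genes. The median log2 fold change was −0.14 over the members tested and 0.0041 over all genes. This comparison shares no library with the first, but the letter and the estimate of spread are common to both. As in the first, the hepatocyte and cholangiocyte marker sums were lower with lipid in each letter (cholangiocyte means 761 ± 208 and 493 ± 119 CPM; SD, n = 4), and the *Cd68*-led sum was higher in each (206 ± 35.3 and 270 ± 50.4 CPM). Their part in the differences below was not tested.

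*Acot9* was at 75.9, 74.4, 80.2 and 73.6 CPM in itaconate-treated and 52.5, 54.2, 63.8 and 53.8 CPM in lipid + itaconate-treated replicates A to D. The groups did not overlap, and lipid + itaconate replicate C stood above the rest of its group. The log2 fold change was −0.44 ± 0.0516 (edgeR adjusted p = 8.11e-06; lower in each of the 4 letters). Leaving out replicate B of the lipid + itaconate group gave −0.43 (edgeR adjusted p = 3.89e-05; range over 24 alternatives 3.08e-13 to 0.00038). *Acot13* was at 39.4, 43.1, 34.9 and 39.1 CPM in itaconate-treated and 44.1, 51.5, 52.4 and 48 CPM in lipid + itaconate-treated replicates A to D. All values with lipid were above all values without it, the difference being widest in letter C. Its log2 fold change was 0.33 ± 0.0605 (edgeR adjusted p = 0.000473; higher in each of the 4 letters), and 0.34 when replicate B of the lipid + itaconate group was left out (edgeR adjusted p = 0.000921; range over 24 alternatives 2.53e-06 to 0.00634). *Acot2* lay between 4.32 and 8.85 CPM with itaconate and between 4.3 and 6.14 CPM with both agents (log2 fold change −0.17 ± 0.186, edgeR adjusted p = 0.473). With replicate B of the lipid + itaconate group omitted it was −0.32 (edgeR adjusted p = 0.173).

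*Acot7* was at 39, 42, 44.1 and 39.9 CPM in itaconate-treated and 45.7, 43.6, 45.7 and 46.5 CPM in lipid + itaconate-treated replicates A to D. It was higher with lipid in each letter, and the groups met only where lipid + itaconate replicate B lay below itaconate replicate C. Its log2 fold change was 0.14 ± 0.0501 (edgeR adjusted p = 0.0313), and 15 of 24 alternatives passed the threshold, with adjusted p-values from 0.0143, without lipid + itaconate replicate B (log2 fold change 0.17), to 0.157. The call was lost on leaving out replicates A, B or D of the itaconate group (0.074, 0.0722 and 0.113) or replicates A or D of the lipid + itaconate group (0.157 and 0.0885). It was also lost without the replicate block (0.0866) or a filter (0.087), with DESeq2 (0.068) and in a fit of the 8 libraries alone (0.063). *Acot12* was at 35, 29.5, 28.7 and 32.5 CPM with itaconate and 29.9, 30.3, 21.2 and 25.7 CPM with both agents in replicates A to D. The value with lipid was lower in letters A, C and D and higher in B, and the groups overlapped. Its log2 fold change of −0.23 ± 0.0733 (edgeR adjusted p = 0.016) became −0.33 without lipid + itaconate replicate B (edgeR adjusted p = 0.000669, the lowest of 24 alternatives). The call was lost without lipid + itaconate replicate C (0.0619) or D (0.0678) and without the replicate block (0.0909, the highest). *Acot1* lay between 3.81 and 5.91 CPM with itaconate and between 3.39 and 5.55 CPM with both (log2 fold change −0.10 ± 0.217, edgeR adjusted p = 0.722). With replicate B of the lipid + itaconate group omitted it was −0.35 (edgeR adjusted p = 0.161).

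*Acot4* was at 6.06, 5.58, 7.87 and 9.74 CPM in itaconate-treated and 4.81, 4.08, 5.79 and 5.66 CPM in lipid + itaconate-treated replicates A to D. It was lower with lipid in each letter. The groups overlapped only in that lipid + itaconate replicates C and D lay above itaconate replicate B. Its log2 fold change was −0.51 ± 0.119 (edgeR adjusted p = 0.00274), and −0.52 without lipid + itaconate replicate B (edgeR adjusted p = 0.00562). Without the replicate block the adjusted p was 0.0616, the highest of 24 alternatives (lowest 0.000333). *Acot8* lay between 6.25 and 8.74 CPM with itaconate and between 6.37 and 9.09 CPM with both (log2 fold change 0.02 ± 0.118, edgeR adjusted p = 0.884). With replicate B of the lipid + itaconate group omitted it was −0.09 (edgeR adjusted p = 0.55).

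Itaconate, a metabolite that activated macrophages make from the citric acid cycle and that can itself be joined to coenzyme A, was then compared with untreated cells. *Acot7* fell, and no other tested member was called. That is 1 of 8 members, lower, beside 4.91% of all genes by the edgeR test. The members' median log2 fold change was 0.01, and that of all genes was −0.0019. The untreated libraries are also the controls of the first lipid comparison, and the itaconate libraries those of the second, so these sets of differences are not independent.

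The itaconate-treated values of *Acot7* (39, 42, 44.1 and 39.9 CPM) lay below all untreated values (44.8 to 50.3 CPM), and the difference was of similar size in each letter, from −0.19 to −0.23 on the log2 scale. The fitted log2 fold change was −0.21 ± 0.0503 (edgeR adjusted p = 0.0247; 16 of 24 alternatives passed, from 0.00221 to 0.151). The call was lost on leaving out replicates A, B or C of the untreated group (0.075, 0.0833 and 0.0766) or any 1 itaconate library (0.0642, 0.067, 0.062 and 0.096 for A to D), and without the replicate block (0.151). The same itaconate-treated values are the lower arm of the *Acot7* rise with lipid given above, so the 2 calls share these 4 libraries. *Acot9* lay between 65 and 72.6 CPM in untreated and between 73.6 and 80.2 CPM in itaconate-treated libraries. These groups did not overlap either and all 4 letters were higher, but the log2 fold change of 0.13 ± 0.0514 did not pass (edgeR adjusted p = 0.152). A fit of those 8 libraries alone passed the threshold (0.0448, the lowest of 24 alternatives; highest 0.356). *Acot13* differed by −0.0040 on the log2 scale (95% interval −0.13 to 0.13). *Acot12* (0.09 ± 0.0732), *Acot1* (0.21 ± 0.218), *Acot8* (0.02 ± 0.119), *Acot2* (−0.05 ± 0.185) and *Acot4* (−0.11 ± 0.116) had edgeR adjusted p-values between 0.513 and 0.929. Among the markers, *Cd68* fell with itaconate (log2 fold change −0.24, edgeR adjusted p = 0.0108) and *Lyz2* rose (0.50, edgeR adjusted p = 0.0166), and their part in the *Acot7* difference was not tested.

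With lipid present in both arms, none of the 8 members was called for itaconate by edgeR, DESeq2 or limma-trend, beside 2.58% of all genes called in edgeR. Median log2 fold changes were 0.03 over the members and −0.0001 over all genes. The largest was that of *Acot1*, from 2.44, 2.03, 4.22 and 5.1 CPM with lipid to 4.81, 5.55, 3.39 and 4.16 CPM with both agents in replicates A to D. Letters A and B were higher with itaconate and letters C and D lower, and the log2 fold change of 0.44 had a 95% interval of −0.04 to 0.92 (edgeR adjusted p = 0.332). Without lipid + itaconate replicate B it was 0.19 (edgeR adjusted p = 0.709, the highest of 24 alternatives; lowest 0.072). The other 7 members had log2 fold changes from −0.19 for *Acot2* to 0.12 for *Acot13*. Without lipid + itaconate replicate B they were −0.345 for *Acot2*, −0.14 for *Acot8* (−0.02 with it), −0.12 for *Acot4*, −0.09 for *Acot12* (0.0010 with it), 0.10 for *Acot7*, 0.10 for *Acot9* and 0.14 for *Acot13* (edgeR adjusted p from 0.361 to 0.725), and 1.15% of all genes were called. The lipid libraries of this comparison are also the treated arm of the first one, and the lipid + itaconate libraries that of the second.

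The interaction asks whether the itaconate difference was itself different with lipid. None of the 8 members passed by edgeR, DESeq2 or limma-trend. Of all genes tested, 0.00857% passed, which is *Cxcl10* alone, a chemokine gene chosen after its value was seen. The smallest member p was that of *Acot7*, whose interaction of 0.28 ± 0.0711 on the log2 scale was positive in each of the 4 letters, with an unadjusted p of 0.00134 in edgeR and an adjusted p of 0.257 (0.133 to 1 over 23 alternatives). The lipid differences of *Acot7* without and with itaconate, −0.14 and 0.14, are therefore not shown to differ once all genes are taken into account. For *Acot9* and *Acot4* the interactions were −0.04 (95% interval −0.20 to 0.11) and −0.0015 (−0.36 to 0.36), and for *Acot13* 0.13 (−0.06 to 0.31). Without lipid + itaconate replicate B the interactions were 0.30 for *Acot7*, −0.04 for *Acot9*, −0.02 for *Acot4*, 0.14 for *Acot13*, −0.01 for *Acot1* (0.23 with it), −0.30 for *Acot2* (−0.14 with it), −0.17 for *Acot8* (−0.05 with it) and −0.185 for *Acot12* (−0.09 with it). None of the 8 passed (edgeR adjusted p from 0.133 to 0.992), and 0.0599% of all genes did.

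**Figure D3:**
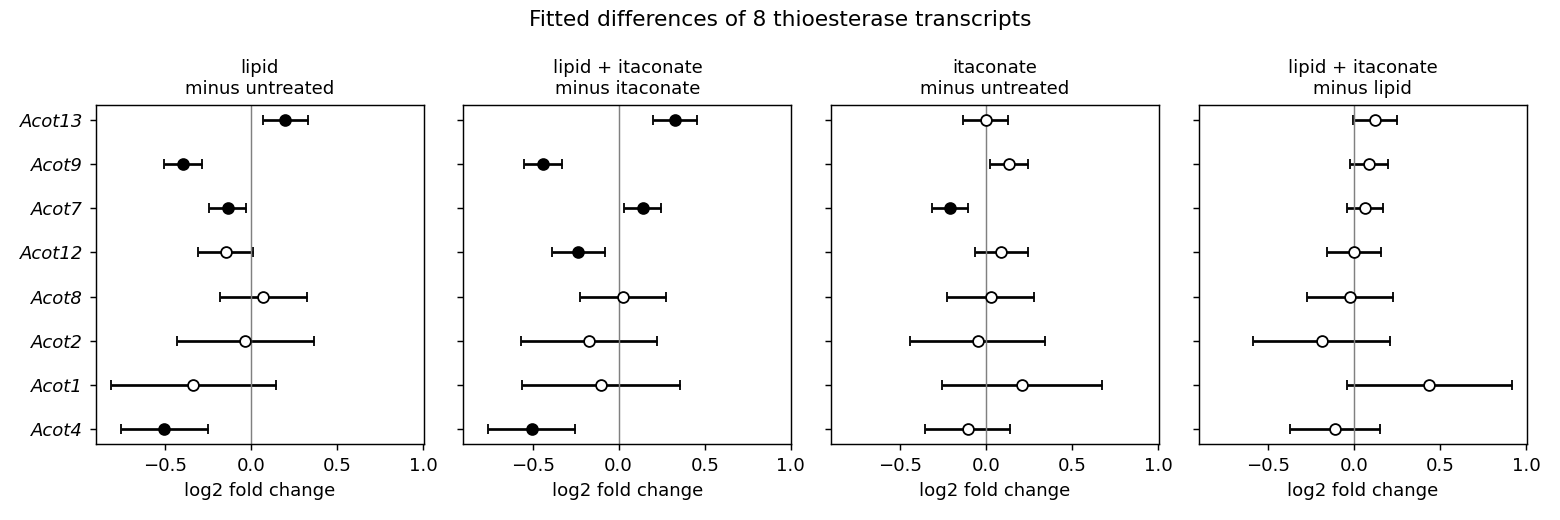
Fitted log2 fold changes of the 8 tested thioesterases in 4 comparisons, with 95% intervals. Filled points passed an adjusted p of 0.05 in edgeR: 4 and 5 in the lipid comparisons, 1 in itaconate minus untreated and 0 in lipid + itaconate minus lipid.

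*Acot1* to *Acot6* lie together on the plus strand of chromosome 12, between 83987861 and 84111349 (GRCm38, GENCODE M21), while *Acot9* is on chromosome X, *Acot12* and *Acot13* on chromosome 13, *Acot7* and *Acot11* on chromosome 4 and *Acot8* on chromosome 2. The coding sequences of *Acot1* and *Acot2* were 95.3% identical over 1236 aligned bases, those of *Acot1* and *Acot4* 76.5% identical, and those of *Acot9* and the untested *Acot10* 97.2% identical. Of the 100-base stretches of their transcripts, 17.1% in *Acot2* and 12.4% in *Acot1* also occurred in another Acot gene, against 0.705% in *Acot9*, 0.336% in *Acot4* and 0 in *Acot7*, *Acot8*, *Acot12* and *Acot13*. The read length is not given, and of 50-base stretches 27.6% in *Acot2*, 18.4% in *Acot1*, 15.2% in *Acot9* (all with *Acot10*) and 4.17% in *Acot4* were shared. *Acot10* had at most 5.01 expected counts in any library, where *Acot9* had 1246.18 or more. RSEM divides reads that fit more than 1 gene by estimate, and the counts of *Acot1* and *Acot2* were not whole numbers in 16 of 16 libraries, so their separate levels are uncertain. A stretch of 90 coding bases shows how close the genes are. It covers chr12:84014462-84014551 in exon 2 of *Acot1*, chr12:83990577-83990666 in exon 2 of *Acot2*, chr12:84056992-84057081 in exon 3 of *Acot3* and chr12:84041920-84042009 in exon 2 of *Acot4*, all on the plus strand, 5′ to 3′. Capitals mark the bases that differ from *Acot1*, of which there are 4 in *Acot2*, 10 in *Acot3* and 27 in *Acot4*.
Acot1: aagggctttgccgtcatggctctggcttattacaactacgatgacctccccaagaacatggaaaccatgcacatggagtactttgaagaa
Acot2: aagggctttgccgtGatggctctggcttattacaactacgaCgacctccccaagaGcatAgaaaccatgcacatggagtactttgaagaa
Acot3: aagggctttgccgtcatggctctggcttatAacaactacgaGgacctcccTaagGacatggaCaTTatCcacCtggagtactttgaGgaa
Acot4: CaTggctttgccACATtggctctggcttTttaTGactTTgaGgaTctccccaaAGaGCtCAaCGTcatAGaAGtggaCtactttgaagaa

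*Acot1* made up 41.7, 48.1, 41.8 and 38.2% of the summed counts of *Acot1* and *Acot2* in untreated replicates A to D, and 26, 29.3, 46.8 and 45.5% in the lipid-treated ones. With itaconate the shares were 51, 46.8, 49.6 and 40.1%, and with both agents 52, 51.3, 44.1 and 40.4%. Lipid replicates A and B thus had the lowest shares. Lipid + itaconate replicates A and B had shares above 50%, and so did itaconate replicate A (51%). The summed level of *Acot1* to *Acot6*, which does not depend on how reads were divided among them, was 18.2, 18, 21.9 and 27.5 CPM in untreated and 19.9, 15, 19.2 and 23.9 CPM in lipid-treated replicates A to D. The groups overlapped, and the log2 fold change of lipid minus untreated was −0.14 ± 0.0996 (edgeR adjusted p = 0.277). *Acot6*, a peroxisomal neighbour of *Acot4* outside the 10, went the other way from *Acot4*: it was at 3.42, 3.19, 2.12 and 2.85 CPM in untreated and 4.63, 3.99, 3.49 and 4.83 CPM in lipid-treated replicates A to D. The lipid-treated values were all above the untreated ones (log2 fold change 0.55 ± 0.179, edgeR adjusted p = 0.0195, range over 24 alternatives 0.00247 to 0.0849). This call was lost on leaving out lipid replicate A (0.063) or untreated replicates C (0.0849) or D (0.08). With itaconate in both arms the log2 fold change of *Acot6* was 0.70 ± 0.182 (edgeR adjusted p = 0.00506; higher in each of the 4 letters).

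Promoter windows from RefSeq (GRCm38.p6) were matched by symbol for 9 of the 10 genes, all but *Acot13*. The motif AGGTCA, bound by many nuclear receptors, was searched on both strands, as was the direct repeat named DR1, AGGTCA repeated after 1 base, with up to 2 mismatches. AGGTCA occurred in 16.3% of 32851 promoter windows and the DR1 in 3.86%. Among the 10 genes AGGTCA occurred in the windows of *Acot3*, *Acot4* and *Acot12*. The DR1 was matched in those of *Acot4* and *Acot12*, and the matches can overlap with AGGTCA. The *Acot4* window is shown because it holds a DR1 match in a gene that fell with lipid in both comparisons. *Acot9* fell in both too, and its window held neither motif. The *Acot4* window covers chr12:84038129-84038428 on the plus strand, 5′ to 3′, with the DR1 match in capitals.
Acot4: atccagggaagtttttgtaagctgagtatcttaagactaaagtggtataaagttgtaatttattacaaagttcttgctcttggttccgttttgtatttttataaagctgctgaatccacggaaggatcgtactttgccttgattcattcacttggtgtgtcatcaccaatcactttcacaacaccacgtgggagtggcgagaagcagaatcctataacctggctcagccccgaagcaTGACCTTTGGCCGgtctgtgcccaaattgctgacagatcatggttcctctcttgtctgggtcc
A match describes these letters and was not tested as a site.

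Likeness of pattern was measured by Pearson's r of log2 CPM over the 16 libraries after removal of the letter means, among the 9644 genes averaging 5 CPM or more. These values describe libraries that share 4 treatments and carry no test. The genes most like *Acot9* were *Ripk1* (0.983), *Rnf5* (0.983) and *Arhgap42* (0.977). Those most like *Acot13* were *Dact2* (0.950), *Tubgcp4* (0.948) and *Fkbp9* (0.940), and those most like *Acot7* were *Mcm4* (0.826), *Smox* (0.816) and *Ptprk* (0.813).

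Enzymes that make or use the same acyl-CoAs, and related regulators, were counted by list, each beside the 47.5% of all genes called in lipid minus untreated and their median log2 fold change of 0.0047. Each gene named from the lists for lipid moved in its direction in 4 of 4 letters. Of 12 other thioesterases tested, 3 rose and 2 fell (median 0.01). They included *Them4*, a mitochondrial thioesterase, which rose from 5.14 ± 0.648 to 7.03 ± 0.764 CPM (SD, n = 4; log2 fold change 0.45, edgeR adjusted p = 0.00177), the fatty acid synthase *Fasn*, which ends in a thioesterase domain (−0.29, edgeR adjusted p = 4.8e-05) and the depalmitoylating enzyme *Lypla2* (−0.26, edgeR adjusted p = 0.000547). Of 17 acyl-CoA synthetases tested, 1 rose and 8 fell (median −0.16). The long-chain enzymes *Acsl4* and *Acsl1* fell from 123 to 88.9 and from 53.2 to 39.4 CPM (log2 fold changes −0.47 and −0.43, edgeR adjusted p = 2.34e-06 and 6.66e-05), and the acetoacetyl-CoA synthetase *Aacs* rose from 71.6 to 109 CPM (0.60, edgeR adjusted p = 0.000173).

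In peroxisomal β-oxidation, 2 of 17 genes rose and 9 fell (median −0.20). The oxidase *Acox2* fell from 69.2 to 36.7 CPM and the bifunctional enzyme *Ehhadh* from 73.6 to 42.9 CPM (log2 fold changes −0.92 and −0.79, edgeR adjusted p = 8.59e-09 and 2.83e-06). The reductase *Decr2* (0.28, edgeR adjusted p = 0.00674) was among those that rose. In mitochondrial β-oxidation, 2 of 19 rose and 13 fell (median −0.25), among them the long-chain dehydrogenase *Acadl* and the carnitine palmitoyltransferase *Cpt1a* (both −0.49, edgeR adjusted p = 1.7e-06 and 0.000523). The medium- and short-chain dehydrogenases *Acadm* (0.16, edgeR adjusted p = 0.00893) and *Acads* (0.18, edgeR adjusted p = 0.0037) rose. Without the replicate block, the calls of *Decr2*, *Acadm* and *Acads* were lost (adjusted p = 0.0516, 0.105 and 0.0835).

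Of 19 tested genes for PPARα and its classic targets, 3 rose and 9 fell (median −0.28). *Pdk4*, a kinase that restrains pyruvate dehydrogenase, fell from 308 to 122 CPM and the lipase inhibitor *Angptl4* from 130 to 64.7 CPM (log2 fold changes −1.34 and −1.02, edgeR adjusted p = 1.58e-08 and 4.47e-08). *Txnip*, known foremost as a glucose-responsive gene, rose from 26.1 to 139 CPM and the hepatic transcription factor *Creb3l3* from 103 to 215 CPM (2.44 and 1.06, edgeR adjusted p = 3.03e-08 and 3.1e-11). Of 16 genes of coenzyme A synthesis and breakdown, 6 rose and 7 fell (median 0.02). The kinase-like gene *Dcakd* (0.51, edgeR adjusted p = 8.84e-07) and the nudix hydrolase *Nudt8* (0.46, edgeR adjusted p = 0.000322) rose. The mitochondrial coenzyme A carrier *Slc25a42* (−0.67, edgeR adjusted p = 0.00274) and the pantetheinase *Vnn1* (−0.61, edgeR adjusted p = 7.98e-05) fell. *Slc25a42* and *Vnn1* belong to the PPARα list too and are also counted among its falls. Of 11 tested genes for the control of sterol synthesis, uptake and efflux, none rose and 9 fell (median −0.65). That list joins genes of the sterol regulators SREBP2 and LXR. The sterol-sensing regulator *Insig1* fell from 237 to 91 CPM and the isoprenoid enzyme *Idi1* from 119 to 51.6 CPM (−1.38 and −1.21, edgeR adjusted p = 1.08e-09 and 2.29e-07).

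With itaconate in both arms, 47% of all genes were called for lipid. The lists gave 4 higher and 3 lower for other thioesterases, 1 and 8 for acyl-CoA synthetases, 2 and 9 for peroxisomal and 1 and 14 for mitochondrial β-oxidation. They gave 3 and 10 for PPARα targets, 3 and 6 for coenzyme A genes and 0 and 9 for sterol control. Without lipid + itaconate replicate B, 45.3% of all genes were called, and of the lists, in the same order, 7, 9, 14, 16, 13, 11 and 9 genes in either direction. The genes named above passed again in the same direction except *Acadm* (0.08, edgeR adjusted p = 0.174; higher in 3 of 4 letters), and *Slc25a42* was lower in 3 of 4 letters only. The call of *Decr2* was again lost without the replicate block (0.0567). The call of *Aacs* (0.33, edgeR adjusted p = 0.0145) was lost on leaving out replicates A or B of the lipid + itaconate group (0.0577 and 0.0529) or replicate D of the itaconate group (0.0538).

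Itaconate calls in the lists stand beside 4.91% of all genes called without lipid and 2.58% with it, and are no result about the lists as a whole. In itaconate minus untreated they were *Ppargc1a*, a coactivator of PPARα, from 3.23 to 5.19 CPM (0.69, edgeR adjusted p = 0.0121), the enoyl-CoA isomerase *Eci2* (0.23, edgeR adjusted p = 0.0321), *Creb3l3* (−0.29, edgeR adjusted p = 0.000343), the fatty acid transporter *Slc27a1* (−0.51, edgeR adjusted p = 0.0346) and the sterol synthesis enzyme *Hmgcs1* (−0.39, edgeR adjusted p = 0.0149). With lipid present they were *Pdk4* (0.47, edgeR adjusted p = 0.0122), *Abhd17c* (0.16, edgeR adjusted p = 0.0347) and *Creb3l3* (−0.40, edgeR adjusted p = 6.77e-05), and without lipid + itaconate replicate B 1 gene of the peroxisomal list passed here and 1 in the interaction. Each of these genes moved in its direction in 4 of 4 letters. Without the replicate block all 8 of these calls were lost, with adjusted p-values from 0.0716 for *Ppargc1a* to 0.521 for *Abhd17c*, and in a fit of the 8 libraries alone those of *Pdk4* (0.125) and *Abhd17c* (0.255) were lost too. *Ppargc1a* was lost on leaving out itaconate replicate C (0.0587) and *Pdk4* on leaving out lipid + itaconate replicate A (0.0571). *Hmgcs1* depended on replicates A and B of the untreated group (0.0631 and 0.0638) and C and D of the itaconate group (0.0728 and 0.0594). *Eci2* depended on replicates A, B and D of the untreated group (0.0942, 0.104 and 0.0908) and B, C and D of the itaconate group (0.058, 0.16 and 0.106). *Slc27a1* depended on all 4 untreated libraries (0.108, 0.138, 0.0546 and 0.055 for A to D) and on B, C and D of the itaconate group (0.0857, 0.114 and 0.124). *Abhd17c* was lost on leaving out any 1 lipid library (0.101, 0.0896, 0.0597 and 0.0904 for A to D), A or D of the lipid + itaconate group (0.136 and 0.0889), A or B of the itaconate group (0.0553 and 0.0591) or untreated replicate A (0.0586), and with no filter (0.0656).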

How the data were processed

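Read processing followed the submitters' notes: Cutadapt 1.18 for trimming, STAR 2.7.0f for alignment to mm10 and RSEM 1.3.1 for GENCODE genes. The deposited values are unnormalized expected counts per gene, of which 5.41% are not whole; they were rounded. Genes averaging 1 CPM or more across the 16 libraries (11675) were TMM-normalized and tested with edgeR 4.0.16 (R 4.3.3) by quasi-likelihood, with treatment and replicate letter as terms, all libraries in 1 model, Benjamini-Hochberg adjustment and a threshold of 0.05. The letter was kept as a replicate block because the study's methods removed batch effects with a linear model. Deviations from the group means correlated between libraries sharing a letter (24 correlations from 0.143 to 0.468, median 0.263). The 72 other pairs ran from −0.435 to 0.178 (median −0.114), so the ranges overlapped. Centring on group means ties these sets to each other, so the lower values are not separate support for the block. Intervals are 95%. Exon lengths came from GENCODE M21, whose identifiers matched all 55450 genes; log2 CPM used a prior count of 0.5.

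The members and lists were chosen with earlier results of these data known. All members are named. For each of 7 pathway lists, the genes named are the 2 largest rises and the 2 largest falls with lipid among called genes averaging 5 CPM or more, and up to 3 genes called for itaconate. The 3 genes most like each of the 3 members of highest level per length are named. Alternatives were no replicate block, RLE, filterByExpr, no filter, DESeq2 1.42.0, limma-trend 3.58.1, truncated counts, the 8 compared libraries alone and each library left out. The fitting code was tested on simulated data.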

Additional observations from a re-analysis of the deposited data

Results flagged for a closer look

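In 40 groups of 4 libraries (10 genes in 4 treatments), the gap between the highest or lowest value and its neighbour was compared with the range of the group by Dixon's test, which by chance marks about 1 group in 20. It marked 1: *Acot9* in lipid + itaconate replicate C was at 63.8 CPM, where the rest of the group was at 52.5, 53.8 and 54.2 CPM (ratio of gap to range 0.847).

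*Acot7* was lower with lipid in all 4 letters without itaconate and higher with lipid in all 4 letters with itaconate. The difference between these effects, 0.276 on the log2 scale, had an edgeR adjusted p of 0.257 and did not pass the threshold.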

How the results depend on the processing

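Over 40 member results and 948 alternative values, 864 were labelled as unchanged, 34 lost a call, 1 gained a call and 49 were labelled as reversed. Each of these 49 came from a value that had not passed. A value was labelled as reversed whenever its sign differed, so none of the 864 changed sign. Signs counted gene by gene gave somewhat more changes than this label, for a reason that was not examined. The most changes were 15 for *Acot12* for itaconate with lipid and 10 for the *Acot4* interaction. Without the replicate block the members called were 2, 2 and 0 for lipid, lipid with itaconate and itaconate, and 2 for itaconate in a fit of the 8 compared libraries. Leaving out libraries gave 2 to 4, 3 to 5 and 0 to 1. Over all genes, no replicate block called 23 for itaconate, 9 for itaconate with lipid and 0 for the interaction. The 8 libraries alone called 1865 and 13 for itaconate without and with lipid, no filter 1091, 725 and 231 (the last for the interaction), DESeq2 512 for itaconate with lipid and 36 for the interaction, and RLE and filterByExpr 2 each for the interaction. Leaving out libraries called from 149 (without itaconate replicate C) to 1047 (without lipid + itaconate replicate C) genes for itaconate, between 59 and 889 for itaconate with lipid (leaving out replicates A and C of the lipid + itaconate group), and from 0 to 8 (without lipid replicate B) for the interaction. The largest value that changed sign was the *Acot1* interaction, 0.231 with all libraries. *Acot13* with itaconate became 0.002 with filterByExpr and 0.005 with no filter. *Acot12* for itaconate with lipid became −0.002 with RLE, −0.003 with filterByExpr, −0.002 with DESeq2, −0.005 with limma-trend and −0.004 with the 8 libraries. The *Acot4* interaction became 0.014 with limma-trend and 0.002 with truncated counts. The cause was not tested. Leaving out libraries, the log2 fold change for lipid ranged from −0.233 to 0.121 for *Acot2*, and for lipid with itaconate from −0.354 to 0.089 for *Acot1* and −0.093 to 0.150 for *Acot8*. For itaconate it ranged from −0.186 to 0.080 for *Acot2*, −0.104 to 0.138 for *Acot8* and −0.021 to 0.036 for *Acot13*. For itaconate with lipid it ranged from −0.345 to 0.021 for *Acot2*, −0.142 to 0.065 for *Acot8* and −0.094 to 0.069 for *Acot12*. For the interaction it ranged from −0.012 to 0.423 for *Acot1*, −0.300 to 0.065 for *Acot2*, −0.109 to 0.080 for *Acot4* and −0.168 to 0.080 for *Acot8*. The same alternatives for named list genes, *Acot6* and list counts were chosen after seeing the data: of 1488 values for genes, 1437 kept their call and 51 lost it, and of 833 counts, 755 stayed within 1.5 times and 78 did not. The interaction could not be fitted on 8 libraries, and DESeq2 gave no adjusted p for some members there, which leaves 22 or 23 alternatives. At a few counts per library, *Acot3* and *Acot11* allow no statement on moderate differences.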
